A study of Mus musculus with 12 samples.

Results

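The 9 genes described here make, carry, sense and break down retinoic acid: Aldh1a1, Aldh1a2, Aldh1a3, Rbp4, Stra6, Crabp1, Crabp2, Rarb and Cyp26b1. They were taken by name from the 47729 genes of the count table, with no cut on their values. Earlier results of these data were known when they were chosen. All 9 were found, and 7 passed the filter on low counts. The RNA came from mesenchymal cells of the healthy uterus of female mice of the strain Pdgfrb-BAC-eGFP. In these mice a bacterial artificial chromosome makes green fluorescent protein (GFP) under control of Pdgfrb, the gene of a platelet-derived growth factor receptor. Cells were freed by enzyme digestion and sorted by GFP, and 2 groups of 6 libraries were compared. GFPtotal libraries hold every cell with GFP, a mixture of GFP-high perivascular cells and GFP-low stromal fibroblasts. GFPlow libraries hold the GFP-low cells alone. The mice of both groups carried the reporter and no treatment is given. The sources used here do not give the share of GFP-high cells in GFPtotal, the ages of the mice or their cycle stage. The series states 12 healthy cycling mice, and no label ties a library to a mouse, so the tests see the spread among these 12 libraries and no other. The study used the comparison of GFPtotal with GFPlow to infer what marks GFP-high cells.

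Retinoic acid is made from vitamin A in a chain of steps. Retinol travels in blood bound to the carrier encoded by Rbp4, can enter cells through the receptor encoded by Stra6, is oxidised reversibly to retinaldehyde, and is then oxidised irreversibly to retinoic acid by the retinaldehyde dehydrogenases of the Aldh1a genes. Inside the cell retinoic acid is bound by the proteins of Crabp1 and Crabp2, activates nuclear receptors such as that of Rarb, and is degraded by cytochrome P450 enzymes of the Cyp26 family. In the uterus, retinoid signalling is known for its part in the hormone-driven changes of the endometrium.

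Total counts were 12631266 to 18425596 per library, of which 32.4% to 49.0% were mitochondrial, and 6978218 to 10834905 nuclear counts remained. Markers of both labelled cell types were present. Summed pericyte markers ranged over 923.6 to 1629.0 CPM in GFPtotal (CPM being counts scaled to a common library size), and over 8.87 to 19.9 in GFPlow, while summed fibroblast markers were at 12216.9 CPM or more in every library. GFPtotal 3, 4 and 5 stood apart from the other libraries on the first principal component, so results are given with and without them. The header of the count file of GFPlow 6 names its alignment N8, a name in the series of the GFPtotal libraries, where the other 11 headers match their labels. Its group follows the label, and its pericyte sum was 18.9 CPM. Without GFPlow 6, 0 of the 7 retinoid genes tested were called, where 540 of 14931 genes were called higher in GFPtotal and 70 lower. The log2 fold changes (GFPtotal minus GFPlow) were then −0.73 for Aldh1a2, 1.78 for Aldh1a3, −2.07 for Stra6, −0.76 for Crabp1 and −0.58 for Cyp26b1. For the other genes the value without it stands beside the result where it bears on a call or a sign.

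None of the 7 retinoid genes tested was called between the groups by edgeR. In that test over 14523 genes, 785 genes (5.41%) were called at an adjusted p below 0.05, 661 higher in GFPtotal (4.55%) and 124 lower (0.854%). Of the retinoid genes, 0 were called higher and 0 lower. At an unadjusted p below 0.05 stood 2 of the 7, Aldh1a3 and Stra6, against 19.9% of all genes tested. DESeq2 called 0 of the 7 (9.51% of all genes). Group ranges did not overlap for 0 of the 9 genes, and for 3.66% of all genes. The fold change was positive for 1 gene and negative for 6, with a median log2 fold change of −0.65 (GFPtotal minus GFPlow) beside −0.00 over all genes tested. The groups are bulk samples, in which fewer cells of a type and less RNA per cell cannot be told apart. The ranges of GFPtotal 3, 4 and 5 and of GFPtotal 1, 2 and 6 did not overlap for 6 of the 9 genes: Aldh1a1, Aldh1a2, Crabp1 and Cyp26b1, which were lower in the former, and Aldh1a3 and Rbp4, which were higher. They overlapped for Stra6, Crabp2 and Rarb. The share of all genes that separate along this split was not computed. GFPtotal 3, 4 and 5 were also set apart on these same data. Whether the 6 of 9 is particular to the retinoid genes therefore cannot be told.

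**Figure D1:**
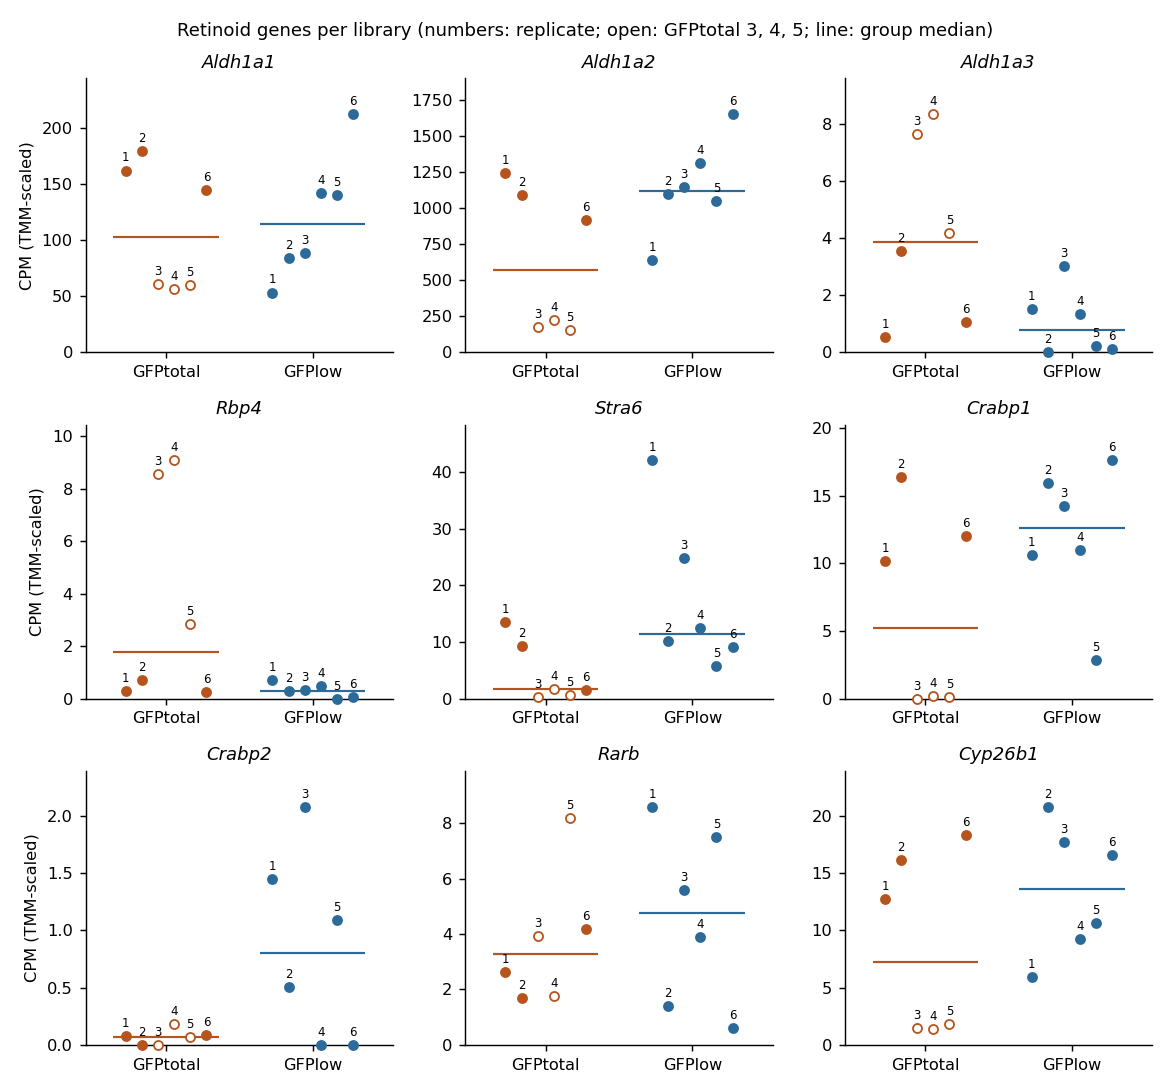
Level of each of the 9 retinoid genes in every library, in CPM on TMM-scaled library sizes, with the replicate number above each point, open points for GFPtotal 3, 4 and 5, and a line at each group's median. Aldh1a2, Aldh1a1, Crabp1 and Cyp26b1 were low in the 3 open points, at 152.1 to 227.8 CPM for Aldh1a2, while Aldh1a3 and Rbp4 had their highest values there.

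Levels of different genes are compared per length, as CPM per kilobase of exon (RPKM). In GFPlow, Aldh1a2 had a median of 495.5 RPKM, above 99.8% of the genes tested, whose median was 2.68 RPKM. Aldh1a1 followed at 55.6 RPKM (above 98.2%) and Crabp1 at 15.7 RPKM (above 88.5%). The GFPlow ranges of these 3 genes did not overlap, at 284.3 to 729.3, 26.0 to 103.4 and 3.54 to 22.0 RPKM. Cyp26b1 (2.54 RPKM), Stra6 (1.94), Rarb (1.56), Crabp2 (0.605), Rbp4 (0.23) and Aldh1a3 (0.171) came next, and each overlapped the gene before it in that order. In GFPtotal the first 3 places were the same, at 253.7, 50.0 and 6.48 RPKM, and the ranges of Aldh1a2 (67.2 to 549.0 RPKM) and Aldh1a1 (27.7 to 87.3 RPKM) overlapped. Below them the GFPtotal order was Rbp4, Cyp26b1, Rarb, Aldh1a3, Stra6 and Crabp2, from 1.38 down to 0.0544 RPKM, again with each neighbour overlapping. The retinoid genes of these cells thus ranged from one of the most abundant transcripts of the stroma to genes with single counts.

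Of the carriers and the entry receptor, Rbp4 and Stra6 had medians in RPKM below the median of the genes tested. In GFPlow, Rbp4 stood above 6.0% of those genes and Stra6 above 42.0%. In GFPtotal they stood above 30.9% and 5.2%. Rbp4 (ENSMUSG00000024990, GRCm38 chromosome 19, 38116620 to 38125321, minus strand) encodes the blood carrier of retinol. It stood at 0.267 CPM at the lowest, 1.79 at the median and 9.08 at the highest in GFPtotal, and at 0.0, 0.298 and 0.696 CPM in GFPlow. The high values were those of GFPtotal 3, 4 and 5, at 8.58, 9.08 and 2.86 CPM, and the other 3 GFPtotal libraries lay within or next to the GFPlow range. With 327 counts against 30 the gene did not pass the count filter, and its means were 3.64 ± 4.14 and 0.303 ± 0.26 CPM (SD, n = 6 each; exact two-sided permutation test over 924 assignments, p = 0.0455). Without GFPtotal 3, 4 and 5 the GFPtotal mean was 0.435 ± 0.255 CPM (SD, n = 3; exact permutation p = 0.50, where 84 assignments allow no p below 0.0238). Without GFPlow 6 the exact permutation p was 0.0866. With no count filter edgeR called Rbp4 (log2 fold change 3.53, adjusted p = 0.0328, where 2.6% of genes were called higher), and not without those 3 libraries (0.48, adjusted p = 0.922).

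Stra6 (ENSMUSG00000032327, chromosome 9, 58063788 to 58153996, plus strand) encodes the membrane receptor that takes up retinol from its carrier. In GFPtotal it stood at 13.5, 9.39, 0.286, 1.78, 0.732 and 1.6 CPM in libraries 1 to 6, and in GFPlow at 42.1, 10.2, 24.8, 12.5, 5.82 and 9.18 CPM. GFPlow 1 was the highest, and GFPtotal 1 and 2 lay inside the GFPlow range, so the groups overlapped. Means were 4.55 ± 5.54 and 17.4 ± 13.7 CPM (SD, n = 6 each), and the log2 fold change was −1.94 (SE 0.82, 95% interval −3.69 to −0.18, adjusted p = 0.199). Limma-voom called it lower in GFPtotal (−2.78, adjusted p = 0.0448), where it called 1.88% of all genes lower, and without GFPtotal 3, 4 and 5 edgeR gave −1.11 (adjusted p = 0.552).

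The retinaldehyde dehydrogenases set the last step of synthesis, and Aldh1a2 was the abundant one. Aldh1a2 (ENSMUSG00000013584, chromosome 9, 71215789 to 71296243, plus strand) made up 87.2% to 92.2% of the summed RPKM of the 3 genes in GFPlow and 68.9% to 87.4% in GFPtotal. Its level was 643.6 CPM at the lowest, 1121.7 at the median and 1651.1 at the highest in GFPlow. In GFPtotal it was 1242.9, 1088.9, 175.6, 227.8, 152.1 and 921.0 CPM in libraries 1 to 6. GFPtotal 1, 2 and 6 thus lay inside the GFPlow range, and GFPtotal 3, 4 and 5 below every GFPlow library. Between the groups the log2 fold change was −0.86 (SE 0.54, 95% interval −2.04 to 0.32, adjusted p = 0.427), and without those 3 libraries −0.11 (SE 0.21, 95% interval −0.55 to 0.34, adjusted p = 0.906). Within GFPtotal, summed fibroblast markers moved with this split: GFPtotal 3, 4 and 5 held 18966.1 to 22628.5 CPM, and GFPtotal 1, 2 and 6 held 29370.7 to 32136.4 CPM. Over both groups they did not, as the GFPlow libraries held 12216.9 to 18456.0 CPM, below every GFPtotal library. Smooth muscle markers (299.3 to 408.4 against 189.9 to 227.8 CPM) and mesothelial markers (68.9 to 80.3 against 45.5 to 49.9 CPM) summed higher in GFPtotal 3, 4 and 5 than in GFPtotal 1, 2 and 6. In GFPlow the smooth muscle sum was 45.8 to 94.9 CPM and the mesothelial sum 73.4 to 104.8 CPM. The mesothelial sum was mostly Wt1, with Msln and Upk3b at 0. The mitochondrial share of counts was lower in GFPtotal 3, 4 and 5 than in GFPtotal 1, 2 and 6, at 40.5%, 32.4% and 33.6% against 45.3%, 45.9% and 49.0%. The part of these in the result was not tested.

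Aldh1a1 (ENSMUSG00000053279, chromosome 19, 20601961 to 20643462, plus strand) encodes the second enzyme of this step. It stood at 56.8 CPM at the lowest, 102.6 at the median and 179.2 at the highest in GFPtotal, and at 53.4, 114.1 and 212.3 CPM in GFPlow. GFPtotal 3, 4 and 5 were again the low ones, at 56.8 to 60.8 CPM against 144.4 to 179.2 CPM in GFPtotal 1, 2 and 6, and GFPlow spanned both. The log2 fold change was −0.12 (SE 0.38, 95% interval −0.92 to 0.69, adjusted p = 0.904). Its sign turned without GFPtotal 3, 4 and 5 (0.41, adjusted p = 0.673) and without GFPlow 6, its highest library (0.12, adjusted p = 0.906). It also turned without GFPtotal 4 alone (0.02, adjusted p = 0.989) and without GFPtotal 5 alone (0.01, adjusted p = 0.995).

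Aldh1a3 (ENSMUSG00000015134, chromosome 7, 66390890 to 66427517, minus strand) encodes the enzyme of this step with the fewest counts here, 369 in GFPtotal and 100 in GFPlow. It stood at 0.541, 3.56, 7.65, 8.35, 4.19 and 1.07 CPM in GFPtotal 1 to 6 and at 1.52, 0.0, 3.02, 1.36, 0.218 and 0.109 CPM in GFPlow 1 to 6. GFPtotal 3, 4 and 5 were the only libraries above 4 CPM. GFPtotal differed from GFPlow by a log2 fold change of 2.02 (SE 0.92, 95% interval 0.09 to 3.96, adjusted p = 0.226), and 0.71 (adjusted p = 0.884) without those 3. Summed epithelial markers differed along the same split: they stood at 27.9, 96.3 and 40.1 CPM in libraries 3, 4 and 5 of GFPtotal, at 7.39 to 13.2 in its libraries 1, 2 and 6, and at 8.98 to 42.5 in the GFPlow libraries. Only GFPtotal 4 lay above the GFPlow range. Most of its sum came from Lcn2 (53.5 CPM) and Ltf (31.7 CPM), which encode secreted proteins. Cdh1 also differed along the split, at 6.36, 5.77 and 6.32 CPM in GFPtotal 3, 4 and 5. In GFPtotal 1, 2 and 6 Cdh1 was at 0.534 to 2.01 CPM, and in GFPlow at 1.52 to 5.53 CPM. Epcam stood at 0.929, 1.1 and 2.2 CPM in GFPtotal 3, 4 and 5 and at 3.73 CPM in GFPlow 1. Krt8 and Krt19 were at 0 in GFPtotal 3 and also in GFPtotal 6. Krt19 stood at 0.43 and 2.46 CPM in GFPtotal 4 and 5, and at 1.93 and 1.62 CPM in GFPtotal 1 and 2. Krt18 stood at 0.286, 2.58 and 0.0665 CPM in GFPtotal 3, 4 and 5, and at 0.0773, 0.0 and 0.0 CPM in GFPtotal 1, 2 and 6. Of the 11 epithelial markers 0 were at 0 in every library, though Foxa2 had counts in GFPlow 1 alone, and 0 of the 5 tested were called. The part of epithelial RNA in the values of Aldh1a3 and Rbp4 was not tested.

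**Figure D2:**
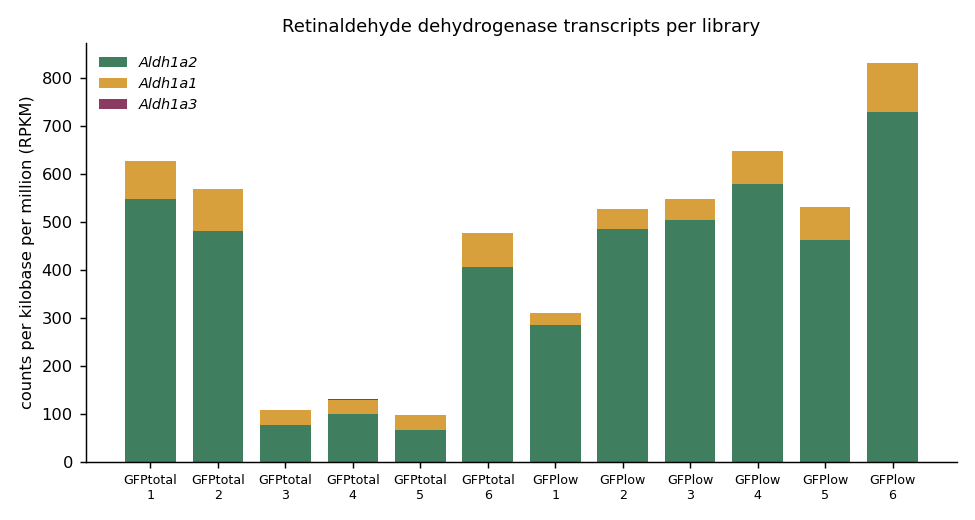
Stacked bars of the per-length levels of Aldh1a2, Aldh1a1 and Aldh1a3 in each of the 12 libraries, in CPM per kilobase of exon (RPKM). The 3 genes summed to 97.5 to 130.1 RPKM in GFPtotal 3, 4 and 5, to 477.4 to 628.1 RPKM in GFPtotal 1, 2 and 6 and to 310.6 to 832.7 RPKM in GFPlow, and Aldh1a3 is too low to see in most bars.

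Crabp1 and Crabp2 encode the cellular binding proteins of retinoic acid. Crabp1 (ENSMUSG00000032291, chromosome 9, 54764748 to 54773110, plus strand) stood at 2.84 CPM at the lowest, 12.6 at the median and 17.6 at the highest in GFPlow. In GFPtotal 1, 2 and 6 it stood at 10.2 to 16.4 CPM, inside that range. GFPtotal 3, 4 and 5 had 0, 3 and 2 counts, at most 0.184 CPM, and a count of 0 in GFPtotal 3 allows up to 0.214 CPM. Over all libraries the log2 fold change was −0.90 (SE 1.07, 95% interval −3.22 to 1.42, adjusted p = 0.709), and 0.07 (95% interval −0.84 to 0.99, adjusted p = 0.972) without those 3 libraries. By limma-voom it was −3.48 (adjusted p = 0.0751).

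Crabp2 (ENSMUSG00000004885, chromosome 3, 87948666 to 87953376, plus strand), whose protein passes retinoic acid to the nuclear receptors, had 6 counts over the GFPtotal libraries and 80 over the GFPlow ones. In GFPlow 1 to 6 it stood at 1.45, 0.509, 2.08, 0.0, 1.09 and 0.0 CPM, and in GFPtotal at 0.184 CPM at most. GFPlow 4 and 6 at 0 were within the GFPtotal range, so the groups overlapped. It did not pass the count filter, and an exact permutation test on the means of 0.0695 ± 0.0682 and 0.855 ± 0.835 CPM (SD, n = 6 each) gave p = 0.0606. Without GFPlow 6 the exact permutation p was 0.0303, at a GFPlow mean of 1.03 ± 0.808 CPM (SD, n = 5). Without GFPtotal 3, 4 and 5 it gave p = 0.238 (exact permutation), and there the gene passed the filter at −3.78 on the log2 scale (SE 1.76, adjusted p = 0.408).

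Rarb (ENSMUSG00000017491, chromosome 14, 16430842 to 16575472, minus strand) encodes retinoic acid receptor beta, and its promoter is itself a known target of retinoic acid. It stood at 1.7 CPM at the lowest, 3.28 at the median and 8.18 at the highest in GFPtotal, and at 0.597, 4.75 and 8.6 CPM in GFPlow. GFPtotal 5 was its highest GFPtotal library and GFPlow 6 its lowest of all, and the groups overlapped over most of their length. The log2 fold change was −0.30 (SE 0.59, 95% interval −1.53 to 0.94, adjusted p = 0.834), −0.71 without GFPtotal 3, 4 and 5 (adjusted p = 0.771) and −0.53 without GFPlow 6 (adjusted p = 0.664). Unlike Aldh1a2, Aldh1a1, Crabp1 and Cyp26b1, it was not lower throughout GFPtotal 3, 4 and 5 (1.78 to 8.18 CPM) than in GFPtotal 1, 2 and 6 (1.7 to 4.19 CPM). That difference between genes was not tested.

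Cyp26b1 (ENSMUSG00000063415, chromosome 6, 84571414 to 84593908, minus strand) encodes an enzyme that breaks down retinoic acid. It stood at 5.94 CPM at the lowest, 13.6 at the median and 20.8 at the highest in GFPlow, and at 12.7 to 18.3 CPM in GFPtotal 1, 2 and 6. GFPtotal 3, 4 and 5 were at 1.41 to 1.86 CPM, below every other library. The groups differed by a log2 fold change of −0.65 (SE 0.63, 95% interval −1.98 to 0.69, adjusted p = 0.63), and 0.20 (95% interval −0.59 to 0.98, adjusted p = 0.899) without those 3 libraries.

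**Figure D3:**
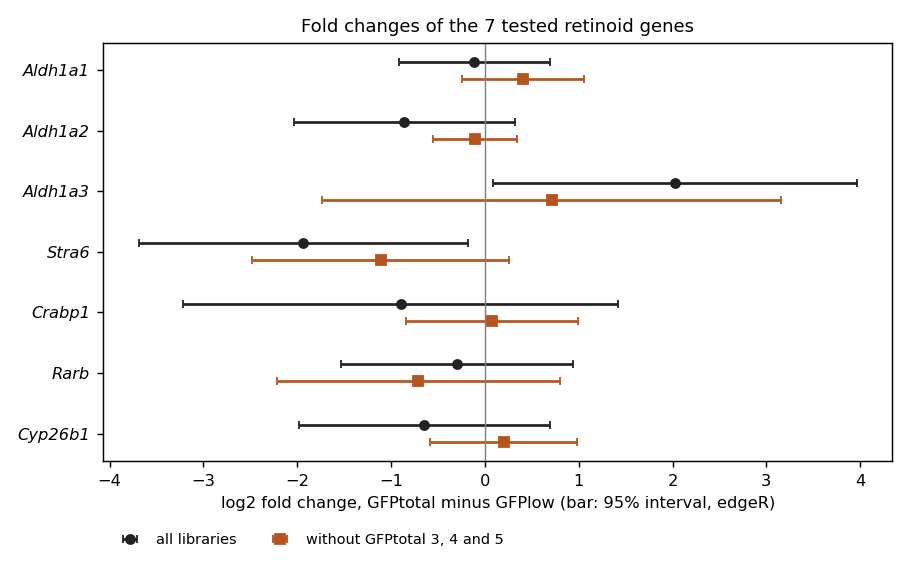
Log2 fold change (GFPtotal minus GFPlow, edgeR) of the 7 tested retinoid genes with 95% intervals, for all 12 libraries (circles) and without GFPtotal 3, 4 and 5 (squares). With all libraries the intervals of Aldh1a3 and Stra6 stop short of 0, at 0.09 and −0.18, and without the 3 libraries all 7 intervals include 0, that of Aldh1a2 from −0.55 to 0.34.

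Stretches before the start sites of 4 of these genes are shown. Rarb was taken as a known retinoic acid target, and Aldh1a2, Crabp1 and Cyp26b1 as 3 of the 4 genes that were low in GFPtotal 3, 4 and 5. The stretches are RefSeq promoter sequence on GRCm38.p6, read 5′ to 3′ on the gene's strand, with positions counted from the RefSeq start site. That of Cyp26b1 stops at −100, as the gene used for counting begins at 84593908, upstream of the RefSeq start site. Capitals mark, in Rarb, 2 half-sites of a retinoic acid response element, and in Aldh1a2 and Cyp26b1 a CCAAT or TATAAA match, and Crabp1 has no match.
Rarb, chr14:16575477-16575576, minus strand, −100 to −1: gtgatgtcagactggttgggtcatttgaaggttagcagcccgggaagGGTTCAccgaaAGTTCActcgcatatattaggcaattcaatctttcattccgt
Aldh1a2, chr9:71215669-71215788, plus strand, −120 to −1: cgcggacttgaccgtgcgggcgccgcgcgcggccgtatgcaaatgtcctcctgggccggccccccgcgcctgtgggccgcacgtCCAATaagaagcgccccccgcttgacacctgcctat
Crabp1, chr9:54764628-54764747, plus strand, −120 to −1: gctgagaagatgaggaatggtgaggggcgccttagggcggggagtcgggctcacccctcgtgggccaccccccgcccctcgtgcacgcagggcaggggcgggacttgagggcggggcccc
Cyp26b1, chr6:84593910-84594029, minus strand, −219 to −100: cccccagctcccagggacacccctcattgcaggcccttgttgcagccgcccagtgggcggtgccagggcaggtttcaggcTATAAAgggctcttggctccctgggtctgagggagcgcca

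The search covered windows of 250 bases before to 50 bases after each start site, on both strands. Windows were at hand for 7 of the 9 genes, 12 windows in all, and none for Aldh1a3 and Crabp2. A response element was taken as 2 half-sites, each of them AGGTCA, its form GGGTCA, its form AGTTCA or its form GGTTCA, in the same direction and 5, 2 or 1 bases apart. The pair 5 bases apart was found in Rarb alone, as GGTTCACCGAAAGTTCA starting at −53, and in 0.0974% of 32851 windows of this length over all genes. The pairs 2 and 1 bases apart were found in 0 of the 7 genes, and in 0.268% and 0.222% of all windows. TATAAA was found in 2 of the 12 windows (1 each of Rbp4 and Cyp26b1), against 13.6% of all windows. CCAAT was found in 4 of the 12 (1 each of Aldh1a1, Aldh1a2, Rbp4 and Stra6), against 37.4%. Of the 4 genes low in GFPtotal 3, 4 and 5, Aldh1a1 and Aldh1a2 had CCAAT (at −36 in Aldh1a2), Cyp26b1 had TATAAA at −139, and Crabp1 had no match. A match is a description of letters and not a bound site.

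The other genes of the retinoid pathway were given by a list of 58, of which 39 passed the count filter. Of the 39, 4 were called higher in GFPtotal and 1 lower, against 4.55% and 0.854% of all genes, and their median log2 fold change was 0.17. The genes called were Dhrs3, Lpl, Meis1, Meis2 and Tgm2. The groups did not overlap for any of the 5, where that held for 3.66% of all genes. The 5 were picked by the test on the same libraries, so this adds no separate evidence. All 5 calls held without GFPlow 6. Without GFPtotal 3, 4 and 5 there were 4 higher and 1 lower, against 1.56% and 0.318% of all genes, and 4 of the 5 were in both. Dhrs3 was the one lost. Adh1, an alcohol dehydrogenase gene that can oxidise retinol, was the one gained, named here after its values were seen. Over all libraries it stood at 106.3 to 349.4 CPM in GFPtotal against 53.4 to 138.3 in GFPlow (log2 fold change 0.98, adjusted p = 0.114).

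**Figure D4:**
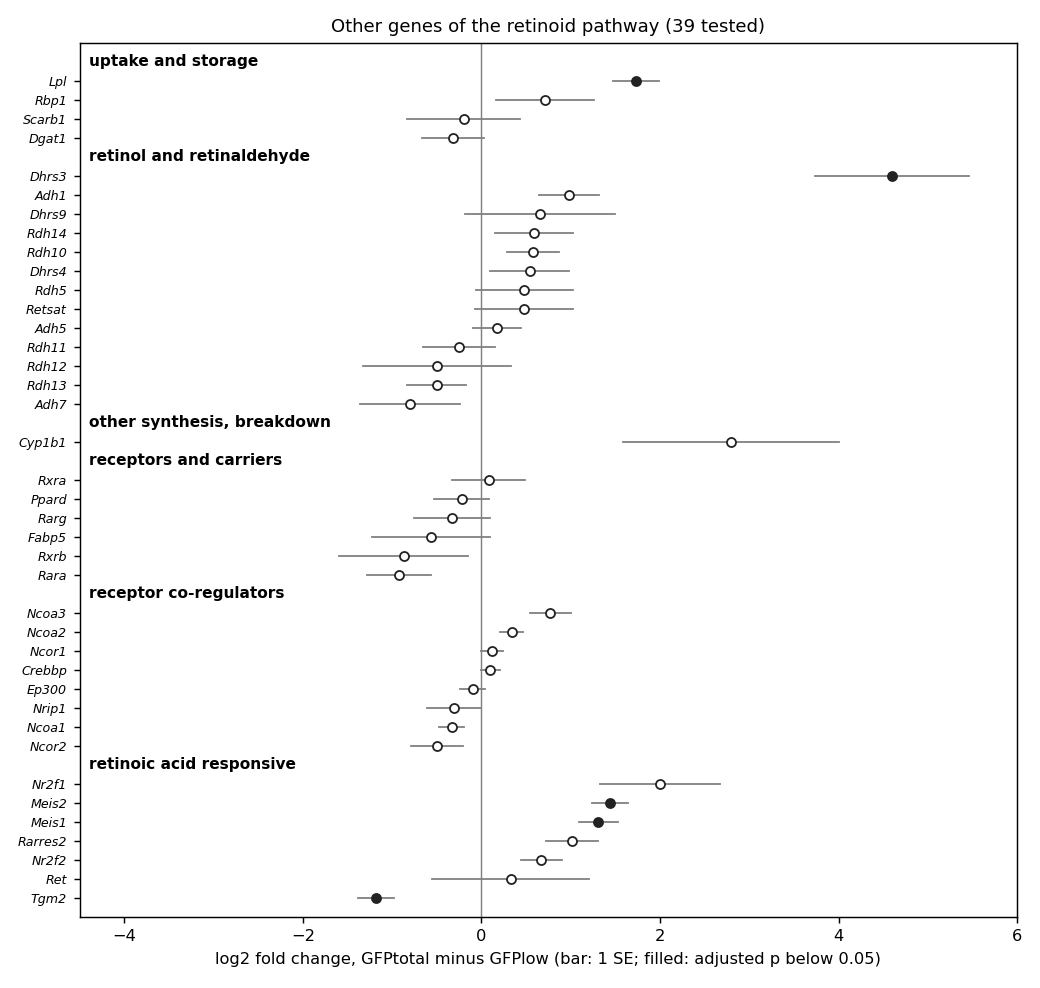
Log2 fold change (GFPtotal minus GFPlow, edgeR, bar 1 SE) of the 39 tested other genes of the retinoid pathway, grouped by role, filled where the adjusted p was below 0.05. The 5 filled points are Lpl, Dhrs3, Meis2 and Meis1 to the right of 0 and Tgm2 to the left.

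Among the genes that interconvert retinol and retinaldehyde, 13 of 17 were tested and 1 was called, higher (4.55% of all genes). Dhrs3 (ENSMUSG00000066026, chromosome 4, 144892827 to 144928209) encodes a reductase that turns retinaldehyde back into retinol. It stood at 0.972 CPM at the lowest, 7.15 at the median and 20.1 at the highest in GFPtotal, and at 0.0629, 0.143 and 0.873 CPM in GFPlow. Every GFPtotal library was above every GFPlow one, and GFPtotal 3, 4 and 5 (11.0 to 20.1 CPM) were above GFPtotal 1, 2 and 6 (0.972 to 3.3 CPM). The log2 fold change was 4.60 (SE 0.86, adjusted p = 0.0044), from 759 counts against 33. Summed pericyte markers were also higher in GFPtotal 3, 4 and 5 (1379.7 to 1629.0 CPM) than in GFPtotal 1, 2 and 6 (923.6 to 1243.4 CPM), and their part in the result was not tested. The call did not hold without GFPtotal 3, 4 and 5, where it was 2.56 (adjusted p = 0.295), or with limma-voom, where it was 4.59 (adjusted p = 0.0558).

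Of the 10 genes of uptake and storage 4 were tested, and Lpl was called higher (4.55% of all genes). Lpl (ENSMUSG00000015568, chromosome 8, 68880491 to 68907448) encodes lipoprotein lipase, which frees fatty acids from lipoproteins and can help cells take up the retinyl esters they carry. It stood at 62.9, 79.7 and 162.5 CPM (lowest, median and highest) in GFPtotal and at 20.6, 32.7 and 35.7 CPM in GFPlow, with no overlap (log2 fold change 1.73, SE 0.26, adjusted p = 0.000652). Without GFPtotal 3, 4 and 5 it was 1.16 (adjusted p = 0.00759). Lrat, which encodes the enzyme that stores retinol as retinyl ester, did not pass the count filter and is named after its values were seen. It had 177 counts over the GFPtotal libraries and 1 over the GFPlow ones, of which 5 were at 0. GFPtotal stood at 0.0891 to 4.46 CPM, above the GFPlow maximum of 0.059 CPM in 6 of 6 libraries. The lowest of these, 0.0891 CPM in GFPtotal 6, is the value of 1 count. The lowest of GFPtotal 3, 4 and 5 was 0.143 CPM, so the separation rests on few counts. With no count filter edgeR called Lrat with all libraries (adjusted p = 0.00153), where 2.6% of genes were called higher. It also did so without GFPtotal 3, 4 and 5 (adjusted p = 0.00296), where the share of all genes is not given here.

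Of 12 genes known to respond to retinoic acid 7 were tested, 2 were called higher and 1 lower (4.55% and 0.854% of all genes), at a median log2 fold change of 1.01. Meis1 (chromosome 11, 18879817 to 19018985) and Meis2 (chromosome 2, 115863064 to 116065839) encode homeodomain transcription factors. Meis2 stood at 153.8, 187.0 and 258.5 CPM (lowest, median and highest) in GFPtotal and 53.1, 70.3 and 114.4 CPM in GFPlow (log2 fold change 1.44, SE 0.20, adjusted p = 0.000376). Meis1 stood at 96.6, 116.2 and 175.6 CPM against 35.0, 45.4 and 83.0 CPM (log2 fold change 1.31, SE 0.22, adjusted p = 0.00185). Tgm2 (chromosome 2, 158116402 to 158146436) encodes a transglutaminase, and was the one gene lower: 19.3, 27.3 and 38.3 CPM in GFPtotal against 53.5, 63.6 and 76.0 CPM in GFPlow (log2 fold change −1.18, SE 0.20, adjusted p = 0.00185). The 3 calls held without GFPtotal 3, 4 and 5, at 1.19, 1.00 and −1.04 for Meis2, Meis1 and Tgm2. The counting did not use strand, and 18.3% of the exonic bases of Meis1 and 21.8% of those of Tgm2 are shared with other genes, so reads of those genes cannot be told apart there. Cdx1, another gene of this list, had 0 counts in all 12 libraries.

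**Figure D5:**
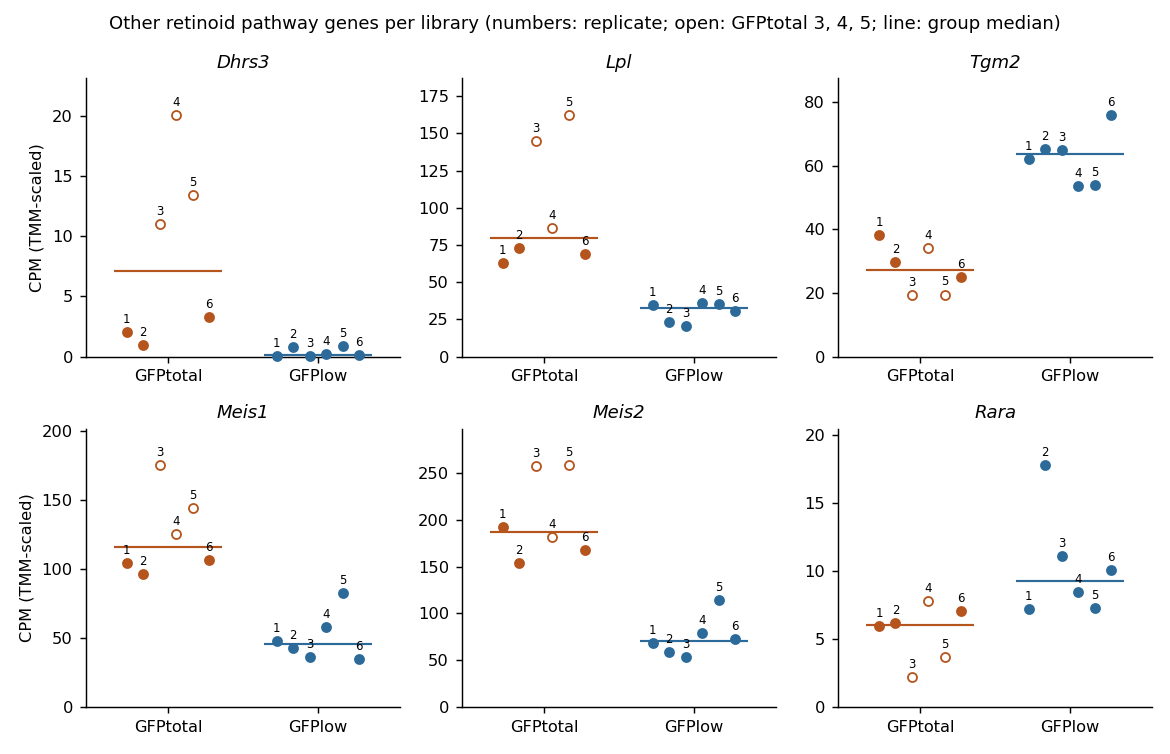
Level in every library, in CPM, of the 5 other pathway genes that were called and of the receptor gene Rara, with open points for GFPtotal 3, 4 and 5 and a line at each group's median. Dhrs3, Lpl, Meis1 and Meis2 lie higher in all 6 GFPtotal libraries and Tgm2 lies lower, with GFPtotal at 19.3 to 38.3 CPM and GFPlow at 53.5 to 76.0 CPM, while the groups of Rara overlap.

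The other nuclear receptors of the pathway were not called. Of 7 receptor genes and carriers to receptors 6 were tested, with 0 calls (5.41% of all genes) and a median log2 fold change of −0.44. Rara, which encodes retinoic acid receptor alpha, stood at 2.22, 6.05 and 7.8 CPM (lowest, median and highest) in GFPtotal and 7.21, 9.27 and 17.8 CPM in GFPlow (log2 fold change −0.92, SE 0.36, adjusted p = 0.157). Rarg had a log2 fold change of −0.33 (adjusted p = 0.733). Of the retinoid X receptors, which pair with the retinoic acid receptors, Rxra had one of 0.08 (adjusted p = 0.939) and Rxrb one of −0.87 (adjusted p = 0.562). Rxrg had 17 counts in GFPtotal and 1 in GFPlow and was not tested. The 8 receptor co-regulators, all tested, had 0 calls and a median of −0.00. Of the 4 genes of other synthesis and breakdown only Cyp1b1 was tested, and its log2 fold change of 2.79 did not pass (adjusted p = 0.218). Cyp26a1 and Cyp26c1, the other genes of the Cyp26b1 family, had 7 and 52 counts over all 12 libraries.

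Genes whose levels went with those of the more abundant members across libraries were listed by Pearson r of log2 CPM after each group's mean was subtracted, among 6539 genes. All 12 libraries share the same counting and scaling, and GFPtotal 3, 4 and 5 weigh in each r, so r over the other 9 libraries is given too. For Aldh1a2 the closest were Mast2 (r = 0.99, and 0.92 over 9 libraries) and Sdk1 (0.98 and 0.85). Foxo1 (0.96 and 0.94) and Ermp1 (0.96 and 0.90) were closest to Aldh1a1. For Stra6 they were Stip1 (0.93 and 0.94) and Smarcc1 (0.92 and 0.89), and for Cyp26b1 Drp2 (0.99 and 0.96) and Il6st (0.97 and 0.81). These values are descriptions of the highest among many genes.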

How the data were processed

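RNA was measured in 12 libraries of uterine Pdgfrb-GFP cells. The deposited values are raw counts. The authors counted read pairs over exons, per the file headers, with featureCounts 1.6.4, by gene of Ensembl release 84, without strand and at a mapping quality of at least 10. Cutadapt, SAMtools and GRCm38 are named per the submitters' processing notes, and the sources used here do not give the aligner. Here counts were filtered with filterByExpr, scaled with TMM factors and tested with edgeR 4.0.16 (quasi-likelihood, two-sided, Benjamini-Hochberg over all genes, R 4.3.3). CPM use TMM-scaled library sizes and RPKM also the exonic length of the files. DESeq2 1.42.0 and limma 3.58.1 served as alternatives, and the fits were tested on simulated data. Named were the 9 genes, pathway genes called, 5 receptor genes and the 2 closest genes of members with a mean of at least 10 CPM. Members and lists were chosen with earlier results of these data known. Libraries of one group differed beyond sampling noise in every pair (chi-square per degree of freedom at least 21.3), and limits from a count of 0 cover counting error only.

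Marker lists of other cells, as summed CPM in GFPtotal and GFPlow, were at 189.9 to 408.4 and 45.8 to 94.9 for smooth muscle, 34.5 to 63.0 and 39.7 to 60.3 for endothelium, 4.62 to 18.0 and 4.07 to 15.6 for leukocytes, 45.5 to 80.3 and 73.4 to 104.8 for mesothelium (mostly Wt1, with Msln and Upk3b at 0), 1.1 to 5.06 and 0.364 to 3.19 for Schwann cells and glia, and 8.59 to 15.8 and 6.46 to 15.8 for erythroid cells (Alas2 alone).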

Additional observations from a re-analysis of the deposited data

Results flagged for a closer look

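Single libraries far from the rest of their group were looked for in 38 groups of values, of which chance flags about 1 in 20, and 4 were found, all in receptor genes outside the 9 retinoid genes. Rara stood at 17.8 CPM in GFPlow 2, with the next library at 11.1 CPM. Rxrb stood at 7.79 CPM in GFPlow 5, with the next at 1.76 CPM. Rxrg stood at 1.43 CPM in GFPtotal 6, from 16 counts, with the next at 0.0715 CPM. In GFPlow, Rxrg stood at 0.0632 CPM in GFPlow 1, from 1 count, and at 0 in the other libraries.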

How the results depend on the processing

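Of 18 other settings, 16 called 0 of the retinoid genes: limma-voom called 1 lower (Stra6, −2.78) and the fit with no count filter 1 higher (Rbp4, which with GFPtotal 3, 4 and 5 also left out, chosen after seeing the data, had 0.48). DESeq2 called 1033 genes higher in GFPtotal, 348 lower and 8 other pathway genes higher. Genes lower numbered 257 when scaled by total library size alone and 273 with limma-voom. Without GFPtotal 3, 4 and 5, 245 genes were higher and 50 lower, and the sign turned for Aldh1a1 (0.41), Crabp1 (0.07), Cyp26b1 (0.20) and Rxra (−0.25). With limma-voom it turned for Rarb (0.06) and Rxra (−0.06). None of the genes whose sign turned was called in either fit, and the cause was not tested.

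Leaving out 1 library at a time gave 406 to 791 genes higher, 61 to 179 lower, and 4 to 6 other pathway genes higher with 1 lower. The count of lower genes was 61, 71 and 69 without GFPtotal 3, 4 or 5 and 67, 64 and 70 without GFPlow 2, 3 or 6, and that of higher genes 406 without GFPtotal 3. The log2 fold changes ran from −0.31 to 0.12 for Aldh1a1, −0.69 to −0.02 for Rarb, −0.28 to 0.28 for Rxra and −1.08 to 0.13 for Rxrb. The ranges were −1.17 to −0.65 for Aldh1a2, 1.71 to 2.71 for Aldh1a3, −2.67 to −1.46 for Stra6, −1.43 to −0.64 for Crabp1 and −1.01 to −0.42 for Cyp26b1, with no call.

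The groups share replicate numbers, and libraries of one number did not deviate together (r from −0.14 to 0.09, 2 of 6 closest to their own number). With the replicate block 492 genes were higher and 90 lower, 0 of the 7 retinoid genes were called, and Rxra turned to −0.12. Crabp2 and Rbp4 changed sides of 0.05 in the exact permutation test without GFPlow 6 (p = 0.0303 and 0.0866, chosen after seeing the data). Crabp2, Rbp4 and Rxrg rest on few counts, which limits their values most.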
